A study of Mus musculus with 12 samples.

Results

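Cells grown out of mouse astrocytes as 3D spheres for 5 days (A-iSC) were compared with brain-derived neural progenitors labelled P0 (P0-NSC), the positive control, with 3 libraries of each. The question was in which genes the sphere cells still differ from the progenitors. The comparison is described over 14291 of the 55421 named genes of the deposited table, namely those at 1 FPKM or more (fragments scaled to gene length and to library depth) in at least 3 of these 6 libraries. Just inside this limit were Capn3 and Gal (1.003 FPKM in the library that decides), and just outside it were Tex9 (0.9994 FPKM) and Kif6 (0.9993 FPKM). The mice were C57BL/6 and the tissue was brain in every group, per the sample labels. The title of the series speaks of retinal transcriptomes, which neither the sample labels nor the design text mention. The other groups were the starting astrocytes at 0 days of incubation (AST, the negative control) and progenitors labelled P56 (P56-NSC), with 3 libraries each. They entered the fit only through the shared spread, and their levels stand beside some values with no test. No transgene, reporter or sort is named for any group in the labels. The titles call the progenitor groups NSC and the design text calls them NPC. Whether libraries of 1 group stem from different cultures or mice is not in the labels, so p-values reflect the scatter among these libraries alone, part of which may be technical. Where 3 values stand against 3, those of A-iSC 1, 2 and 3 come first and those of P0-NSC 1, 2 and 3 second.

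Neural progenitors of the newborn forebrain are the radial glia of the ventricular wall and the cells that descend from them. Radial glia give rise to intermediate progenitors and neurons before birth, and turn to making astrocytes, oligodendrocytes and ependymal cells around and after birth. Astrocytes carry many of the genes of radial glia, respond to injury and culture by a reactive programme, and supply neurons with lipid, lactate and glutamine. Microglia are the resident macrophages of the brain and commonly persist in cultures of astrocytes.

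The 6 libraries held 18288177 to 24452419 recovered reads, with 0.0343 to 0.0496 FPKM per read for a 1 kb gene, so that a value of 0 stands for no recovered read. Across the 14291 genes the Spearman correlation between libraries was 0.9828 to 0.9873 within P0-NSC and 0.6676 to 0.6973 between A-iSC and P0-NSC. Within A-iSC it was 0.9893 between A-iSC 1 and A-iSC 2 and 0.9486 and 0.9549 between A-iSC 3 and these. A-iSC 3 stood apart from the other 2: 213 genes were at least 2-fold above the mean of the other 2 there and 281 at least 2-fold below it, and the share of mitochondrial reads was 3.05% against 7.03% and 5.49%. The results below hold these libraries together, and where leaving out A-iSC 3 ends a call the value without it is given.

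The labels were set against marker genes first. P0-NSC held high levels of radial glial genes such as Fabp7 (589, 704 and 619.8 FPKM) and Sox2 (84.8, 84.4 and 84.3 FPKM). It also held neuronal Tubb3 (608, 566 and 728 FPKM), endothelial Cldn5 (49.6, 53.4 and 49.4 FPKM), choroid plexus Ttr (2246 FPKM on average) and haemoglobin Hba-a1 (159 FPKM). The P0-NSC libraries thus held RNA of neurons, vessels, choroid plexus and blood beside that of progenitors. The A-iSC libraries held high levels of astrocyte genes such as Gfap (658, 769 and 1483 FPKM) and also of microglial genes such as C1qa (1248, 948 and 891 FPKM) and Lyz2 (3672, 2724 and 2475 FPKM). In bulk libraries such as these, fewer cells of a type and less RNA per cell cannot be told apart, and this holds for every comparison that follows.

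Of the 14291 genes 9951 were called, that is, reached a limma adjusted p below 0.05 (Benjamini-Hochberg over 15747 genes tested), with 4817 higher and 5134 lower in A-iSC. Over all genes tested 67.3% were called, 32.6% higher and 34.7% lower. A difference of 2-fold or more, on the log2(FPKM + 1) scale used throughout, was called for 4323 genes, 2070 higher and 2253 lower. Over all 15747 genes tested 4381 (27.8%) were called at 2-fold or more, 2096 higher (13.3%) and 2285 lower (14.5%). The 3 libraries of A-iSC and the 3 of P0-NSC did not overlap for 10099 of the 14291 genes, and for 10841 of all 15747 tested (68.8%). The filter itself brought in 819 genes that reached 1 FPKM in at least 3 libraries through A-iSC alone and 1213 through P0-NSC alone, and these had to differ. Of the other 12259 genes 7927 were called, 4001 higher and 3926 lower, and 2840 at 2-fold or more (1483 higher and 1357 lower). The median log2 difference, A-iSC minus P0-NSC, was -0.02. Gene lists for cell types and pathways, 59 in all, were described by their measured members, meaning those at the expression limit. Of 1350 listed genes 136 were below it, and members measured through 1 group alone are counted where there are many. A list of sex-linked genes had 4 measured members, of which 1 was higher in A-iSC and 0 lower. The remaining gene, Xist, was below the limit, at 1.16, 0.865 and 1.07 FPKM in A-iSC and 0.0195, 0.0402 and 0.0142 FPKM in P0-NSC. Every A-iSC library was thus far above every P0-NSC library for Xist, and whether the groups differ in sex make-up was not tested. Without A-iSC 3 the calls numbered 10630, of which 4571 at 2-fold or more.

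**Figure D1:**
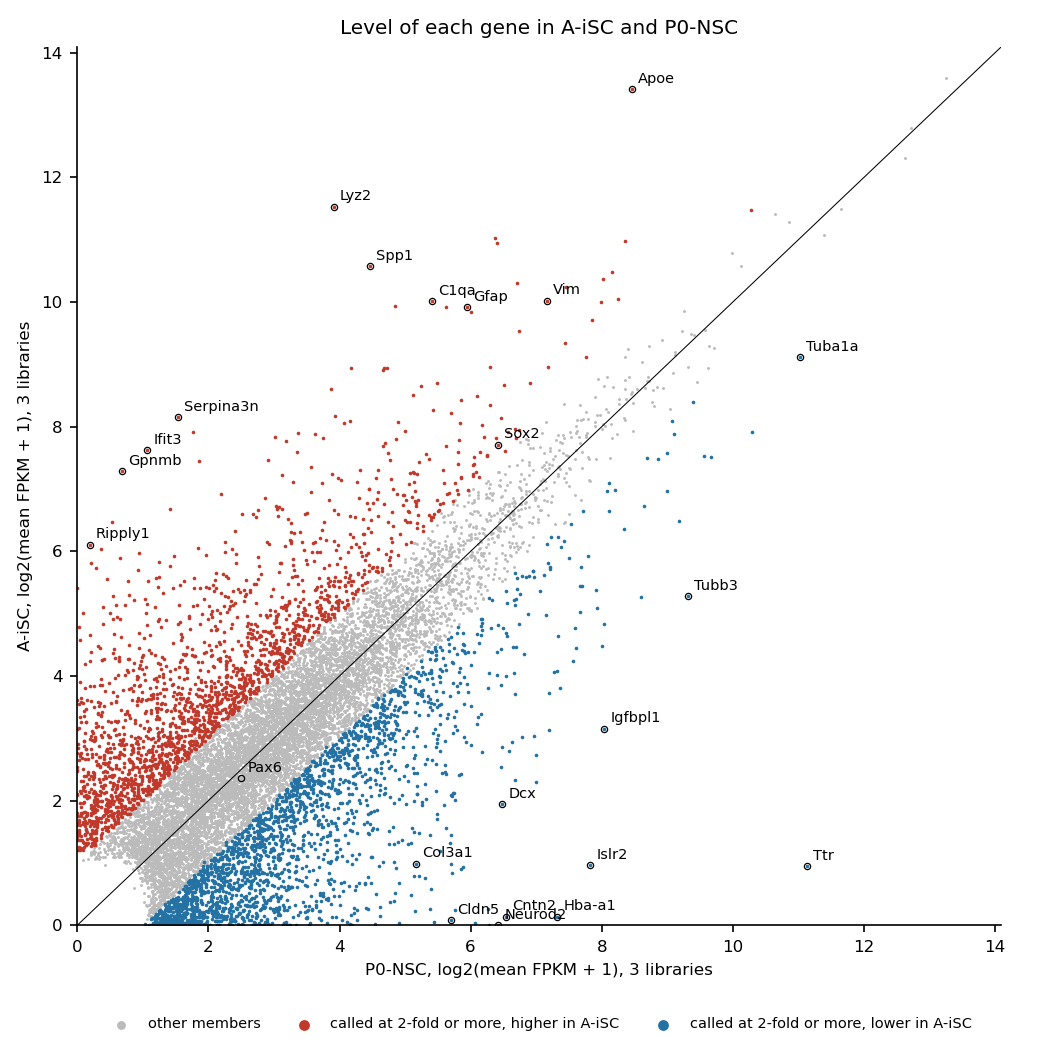
Mean level of each of the 14291 genes in P0-NSC (x axis) and A-iSC (y axis), both as log2(mean FPKM + 1) over 3 libraries, with the line of equal levels. Red and blue points are the 2070 and 2253 genes called at 2-fold or more higher and lower in A-iSC, and the named points spread far from the line on both sides, with Apoe, Lyz2 and Serpina3n above it and Ttr, Islr2 and Neurod2 below.

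Among genes that averaged 10 FPKM or more in the higher group, the 12 largest differences towards P0-NSC were those of choroid plexus, blood, vessel and neuron genes. Ttr, the thyroid hormone carrier secreted by choroid plexus (ENSMUSG00000061808), was at 0.46, 1.56 and 0.755 FPKM in the A-iSC libraries and 3747, 725 and 2265 FPKM in the P0-NSC libraries (log2 difference -9.94 ± 0.48 SE, limma adjusted p = 4.94e-09). The P0-NSC libraries differed among themselves by several fold, but the lowest of them lay far above every A-iSC library. Haemoglobin genes followed, with Hba-a1 at 0.306, 0 and 0 against 159, 102 and 215 FPKM and Hbb-bs at 0.0646, 0.0548 and 0 against 44.5, 26.1 and 56.6 FPKM. Islr2, a neuronal membrane protein with immunoglobulin and leucine-rich repeats, stood at 1.06, 1.04 and 0.737 against 237, 198 and 242 FPKM. The neuronal factors Neurod2, Neurod6 and Neurod1, the axonal adhesion protein gene Cntn2, the calcium buffer gene Calb2, the neuropeptide gene Cck, the kinase-like vesicle protein gene Camkv and the tight junction gene Cldn5 made up the rest, with log2 differences of -5.07 to -6.41. Islr2 and Ttr were at about 1 FPKM in A-iSC and the other 10 below 1 FPKM in every A-iSC library. These 10 were thus measured through P0-NSC alone and had to be lower. Neurod2 had no read in A-iSC, so its log2 difference depends on the added 1 FPKM. Reads of the haemoglobin copies cannot be fully told apart.

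The 12 largest differences towards A-iSC were those of genes of phagocytes, of the interferon response and of reactive astrocytes, and of Ripply1. Lyz2, the lysozyme of macrophages (ENSMUSG00000069516, chromosome 10: 117277331 to 117282321, GRCm38), was at 3672, 2724 and 2475 FPKM in A-iSC and 9.13, 20.1 and 12.9 FPKM in P0-NSC (log2 difference 7.66 ± 0.30 SE, limma adjusted p = 7.92e-10). Serpina3n, a protease inhibitor of reactive astrocytes (ENSMUSG00000021091, chromosome 12: 104406729 to 104414329), was at 179, 283 and 393 against 1.4, 3.25 and 1.06 FPKM (log2 difference 6.62 ± 0.28 SE, limma adjusted p = 1.66e-09). A-iSC 3 had the highest Serpina3n level and the lowest Lyz2 level of its group. Ripply1, a transcriptional corepressor known from somite formation, was at 47.8, 71.8 and 84.4 FPKM in A-iSC and 0.162, 0.169 and 0.0895 FPKM in P0-NSC, where AST averaged 0.177 and P56-NSC 0.0979 FPKM. Ripply1 was thus high in the sphere libraries and near 0 in the other 3 groups. The remaining 9 were the phagocyte and lysosome genes Gpnmb, Spp1, Lgals3 and Wfdc17, the chemokine gene Ccl5 and the interferon-stimulated genes Ifit3, Ifit1, Ifit3b and Isg15, with log2 differences of 5.41 to 6.60. Ifit3 and Ifit3b are close copies, so the split of reads between them is uncertain.

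The steps from progenitor to neuron were lower in A-iSC at almost every stage. Of 11 measured genes of intermediate progenitors 9 were lower and 2 higher (median log2 difference -1.79), and all 23 measured genes of immature neurons were lower (median -3.59), 4 of each list being measured through P0-NSC alone. The T-box factor Eomes, which marks intermediate progenitors of the cortex, was at 0.251, 0.496 and 0.386 FPKM in A-iSC and 14.4, 10.3 and 17.6 FPKM in P0-NSC (log2 difference -3.43 ± 0.16 SE, limma adjusted p = 3.72e-09). Neurog2, the proneural factor that starts excitatory neuron formation, was at 0.49, 0.642 and 0.352 against 14.3, 11.2 and 16.4 FPKM. Insm1, a zinc finger factor of delaminating progenitors, was at 3.75, 3.81 and 5.4 against 54.7, 44.4 and 67.1 FPKM. None of these groups overlapped, and Insm1 kept a measurable level in A-iSC. Eomes and Neurog2 were measured through P0-NSC alone and so had to be lower. The 2 members that went the other way were Gadd45g (221, 212 and 137 against 32.1, 19.3 and 25.5 FPKM) and Btg2 (26.8, 25 and 29.2 against 11.2, 6.89 and 10.1 FPKM), an antiproliferative factor, both of which are also induced by stress in many cells.

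Among genes of newly made neurons, Neurod2 (0, 0 and 0 against 82.1, 74.2 and 96.8 FPKM) and Neurod6 (0.0231, 0 and 0 against 72.5, 67.9 and 89.7 FPKM), factors of cortical excitatory neurons, were at or close to no reads in A-iSC. Dcx, a microtubule protein of migrating neurons (ENSMUSG00000031285, chromosome X: 143855842 to 143933311), was at 2.87, 2.67 and 3.04 FPKM in A-iSC and 80.4, 90.5 and 93.2 FPKM in P0-NSC (log2 difference -4.53 ± 0.09 SE, limma adjusted p = 1.65e-11). The 3 A-iSC libraries lay close together and above AST, where Dcx averaged 0.0833 FPKM, and were near the 3.34 FPKM of P56-NSC. Tubb3, the neuronal beta-tubulin, was at 46.3, 40 and 27.3 against 608, 566 and 728 FPKM. Sox11 (6.6, 6.38 and 5.92 against 89.8, 71 and 103 FPKM) and Sox4 (50.7, 50.9 and 77.8 against 224, 191 and 249 FPKM), SoxC factors of neuronal differentiation, were lower as well, and Sox4 kept an appreciable level. The smallest differences on the list were those of the adhesion proteins Cd24a (-1.13) and Ncam1 (-1.17).

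Genes of neuron classes and of mature neuronal function were mostly lower. Of 20 cortical neuron genes 13 were lower and 3 higher, and of 18 inhibitory neuron genes 11 and 3 (medians -1.57 and -0.82). Of these 7 and 5 were measured through P0-NSC alone. Tbr1, a factor of deep-layer neurons, was at 0.0904, 0.0613 and 0.0136 against 17.1, 16.5 and 21.3 FPKM. Bhlhe22, a repressor in cortical projection neurons, was at 0.134, 0.189 and 0.212 against 32.1, 36.1 and 35.3 FPKM. Reln, the secreted guide of cortical layering, was at 0.259, 0.342 and 0.71 against 29.4, 27.8 and 26.4 FPKM. On the inhibitory side Lhx6, a factor of interneurons from the ganglionic eminence, was at 0.031, 0.0175 and 0.0155 against 11.5, 13.2 and 14.4 FPKM, and the neuropeptide gene Sst at 0.206, 0 and 0.103 against 19.3, 25.2 and 26.1 FPKM. These genes of both classes were below 1 FPKM in every A-iSC library. By contrast Dlx2 (6.17, 7.59 and 5.8 against 9.65, 6.51 and 10.1 FPKM), a factor of ganglionic eminence progenitors, was not called (limma adjusted p = 0.169). Six3 (3.85, 3.98 and 4.02 against 0.714, 0.246 and 0.647 FPKM), a ventral forebrain factor, was higher in A-iSC. All 24 measured synapse and neurofilament genes were lower (median -2.41), 14 of them measured through P0-NSC alone. Snap25, of the vesicle fusion machinery, was at 0.577, 0.328 and 0.269 against 13.6, 16 and 14.9 FPKM. Camk2b, a synaptic kinase, was at 1.39, 1.47 and 1.03 against 43, 49 and 43.2 FPKM.

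**Figure D2:**
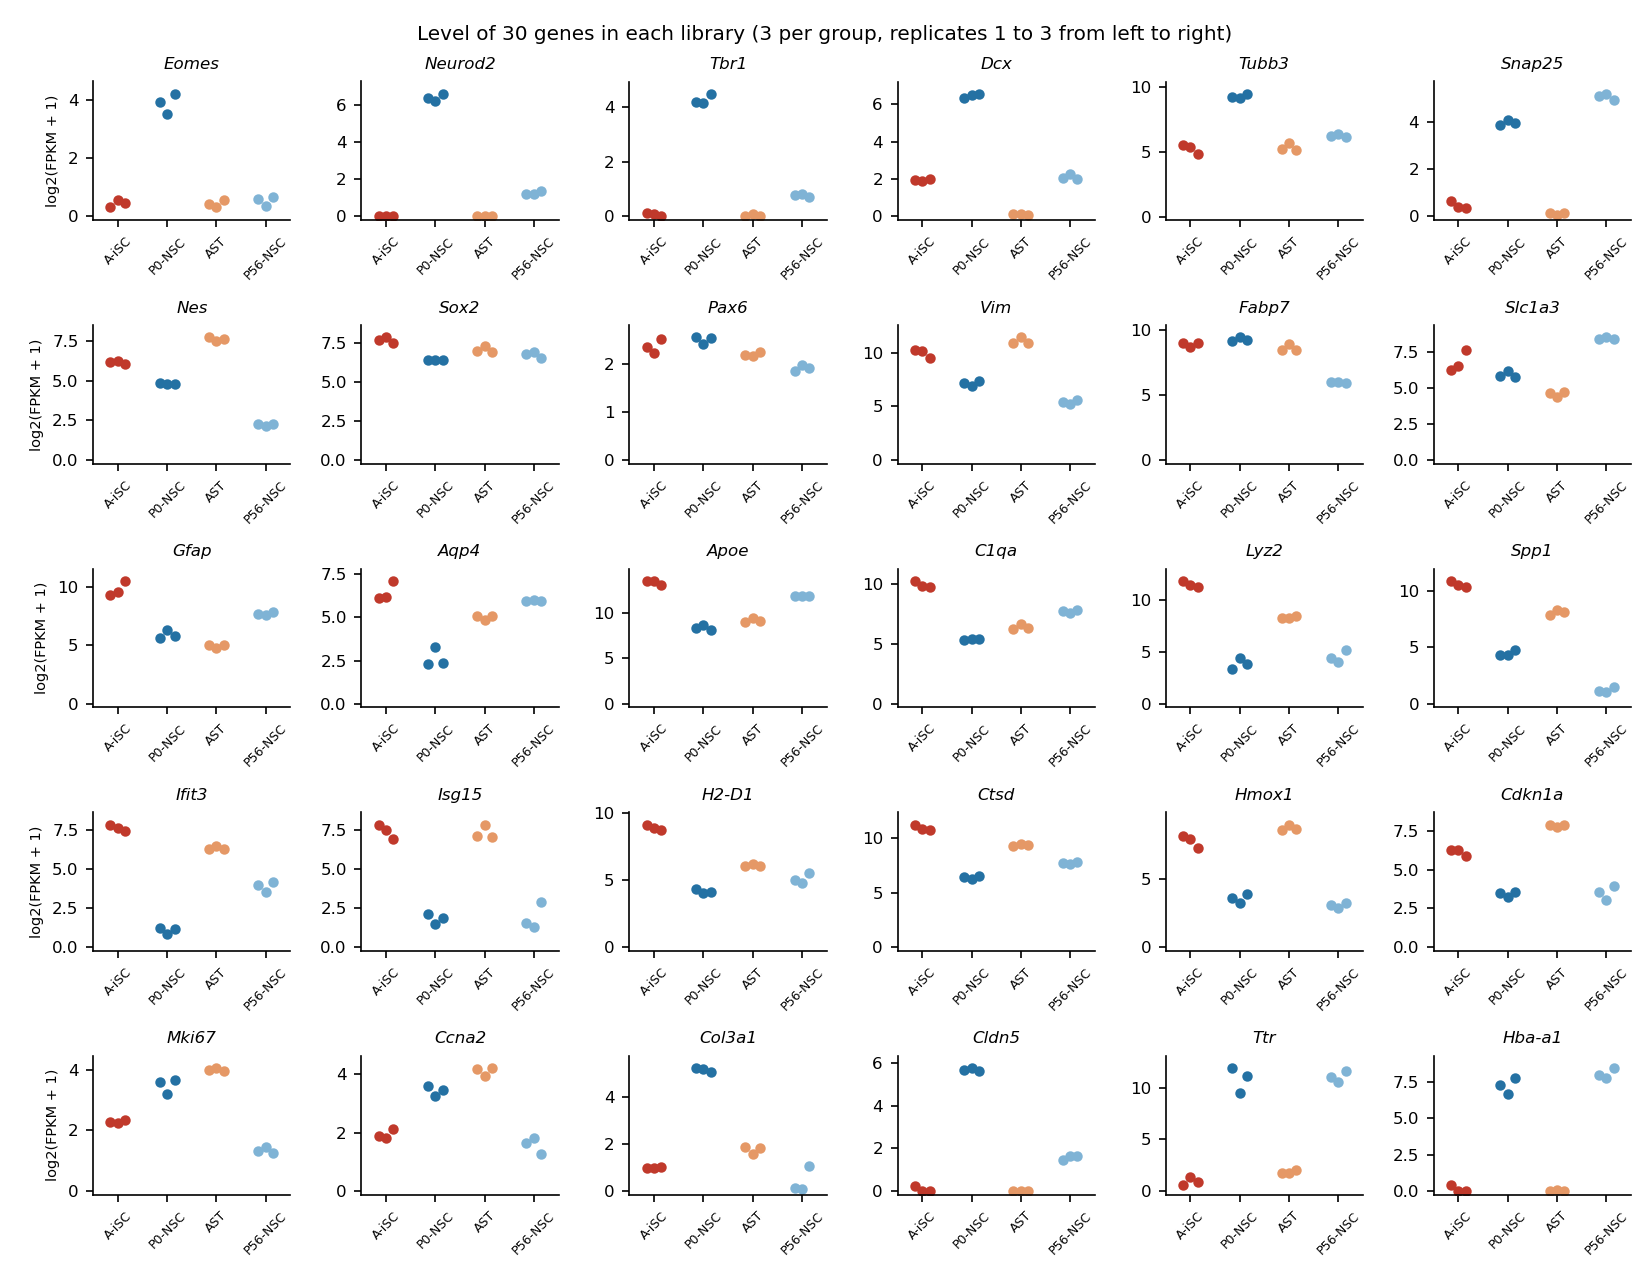
Level of 30 genes in each of the 12 libraries as log2(FPKM + 1), 1 point per library and 4 groups per panel, on axes that start near 0 and differ in height. Neuronal (Neurod2, Tbr1, Dcx), vascular (Cldn5, Col3a1), choroid plexus (Ttr) and blood (Hba-a1) genes lie low in A-iSC, and astrocyte (Gfap, Aqp4, Apoe), phagocyte (C1qa, Lyz2, Spp1) and interferon-stimulated (Ifit3, Isg15) genes lie above P0-NSC.

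The wiring and cytoskeletal genes of neurons were lower too. Of 30 axon guidance genes 23 were lower and 6 higher (median -1.40). Of 30 tubulins and microtubule-associated proteins 23 were lower and 4 higher (median -1.67). Potassium channel genes, 18 in all, split 13 lower and 3 higher (median -1.09). Through P0-NSC alone 5 of the axon guidance and 5 of the potassium channel genes were measured. Dcc, the netrin receptor, was at 0.301, 0.294 and 0.433 against 13.8, 10.9 and 14 FPKM. Its ligand gene Ntn1 was higher in A-iSC, at 7.54, 7.91 and 12.6 against 4.42, 3.95 and 3.97 FPKM. The ephrin Efnb3 (3.65, 4.32 and 5.18 against 47.1, 50.9 and 47.5 FPKM) and the semaphorin Sema3c (3.36, 2.8 and 3.04 against 40.2, 36.5 and 40.2 FPKM) were lower, and the semaphorins Sema6a and Sema4d were higher (0.90 and 0.86). Kcnq3 (0.111, 0.183 and 0.297 against 7.28, 7.35 and 6.96 FPKM), a subunit of a neuronal potassium channel, was near 0 in A-iSC. Within the tubulins the isotypes split: Tuba1a (469, 618 and 574 against 1973, 1945 and 2333 FPKM) and Tubb3 were lower, and Tubb6 (36.3, 29.7 and 25.8 against 5.83, 5.67 and 6.15 FPKM), an isotype common outside neurons, Tuba4a and Tubb4b were higher.

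Neural stem markers did not share a direction. Of 22 measured, 9 were higher, 9 lower and 4 not called (median log2 difference 0.01). That is 40.9% each way, against 32.6% higher and 34.7% lower over all genes tested. Sox2, the factor of neural progenitor identity (ENSMUSG00000074637, chromosome 3: 34650405 to 34652461), was at 210.4, 234 and 180.5 FPKM in A-iSC and 84.8, 84.4 and 84.3 FPKM in P0-NSC (log2 difference 1.28 ± 0.14 SE, limma adjusted p = 4.24e-06). Nes, the intermediate filament nestin (ENSMUSG00000004891, chromosome 3: 87971078 to 87980451), was at 72.2, 73.7 and 64.4 against 27.9, 26.7 and 26.1 FPKM (log2 difference 1.35 ± 0.09 SE, limma adjusted p = 5.81e-08). Its partner Vim was at 1243, 1131 and 741 against 145, 114 and 168 FPKM. These 3 genes were higher in every A-iSC library than in any P0-NSC library, and Nes and Vim were higher still in AST (196 ± 13.4 and 2186 ± 466 FPKM, SD, n = 3). Ednrb, the endothelin B receptor of radial glia and astrocytes, showed the largest difference on the list, at 154, 166 and 320.4 against 26.4, 26.4 and 22 FPKM. On the other side stood Lhx2 (15.3, 13.4 and 16.3 against 88.8, 83.7 and 103 FPKM) and Emx2 (7.77, 8.52 and 6.08 against 25.5, 22.5 and 31.5 FPKM), factors of the cortical wall. Sox3, the third SoxB1 factor beside Sox1 and Sox2, was lower as well (3.72, 4.32 and 3.88 against 12.8, 9.21 and 11.3 FPKM). So were Ptprz1, a receptor phosphatase (18.4, 14.5 and 36.7 against 39.2, 51.5 and 40.4 FPKM), and Hes5, a Notch effector of radial glia (8.85, 9.16 and 5.64 against 15.6, 18.7 and 13.4 FPKM). Hes1, the other main Notch effector, was called the opposite way (15.5, 11.3 and 6.96 against 6.95, 6.31 and 6.86 FPKM), with A-iSC 3 barely above P0-NSC. It kept its call in 19 of 26 alternatives.

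Fabp7, the lipid-binding protein of radial glia, was at 528, 424 and 533 FPKM in A-iSC and 589, 704 and 619.8 FPKM in P0-NSC. The log2 difference was -0.37 ± 0.15 SE (limma adjusted p = 0.0463), -0.978 under quantile normalization, and kept its call in 15 of 26 alternatives (limma adjusted p 0.000659 to 0.176). Slc1a3, the glutamate transporter shared by radial glia and astrocytes, was at 74.8, 93.2 and 205 against 57.7, 72.4 and 55.1 FPKM. A-iSC 3 lay far above the other libraries, and the log2 difference of 0.87 ± 0.29 SE (limma adjusted p = 0.0179) was 0.441 without it (limma adjusted p = 0.0196). The call was kept in 22 of 26 alternatives (limma adjusted p 0.00233 to 0.095). Pax6 (4.06, 3.64 and 4.7 against 4.84, 4.28 and 4.81 FPKM), a factor of cortical radial glia, and Sox1 (17.1, 18.4 and 17.3 against 16.3, 14.4 and 16.5 FPKM) were not called (limma adjusted p = 0.196 and 0.163). The 95% intervals of their log2 differences ran from -0.34 to 0.06 and from -0.05 to 0.36, so a 2-fold difference, which is 1 on this scale, lay outside both. Without A-iSC 3 Pax6 was lower (log2 difference -0.219, limma adjusted p = 0.0328).

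Forebrain patterning genes were mostly lower in A-iSC, and some genes of more posterior regions, at low levels, were higher. Of 17 forebrain patterning genes 11 were lower and 3 higher in A-iSC (median -1.31). Of the 12 of 28 midbrain, hindbrain and Hox genes that reached the expression limit 8 were higher and 3 lower (median 0.87). Of these 12 genes 6 reached the limit through A-iSC alone and so had to be higher there. The summed level of the 28 listed genes was 44.5 to 51.7 FPKM in A-iSC and 76.9 to 101.2 FPKM in P0-NSC. Emx1, of the dorsal telencephalon, was at 1.7, 1.73 and 1.02 against 36.3, 28.3 and 34.7 FPKM. Hoxa2, a factor of the hindbrain, was at 2.07, 1.82 and 1.13 FPKM in A-iSC and had no read in any P0-NSC library. Irx3 (3.86, 3.12 and 2.77 against 0.206, 0.0995 and 0.526 FPKM) and Meis1 (2.38, 2.18 and 2 against 0.0996, 0.179 and 0.21 FPKM), both on the midbrain, hindbrain and Hox list, were low but measurable in A-iSC. The 3 members lower in A-iSC were Zic1 (4.73, 5.31 and 4.7 against 37.8, 24 and 33 FPKM), Zic2 and Zic4, zinc finger factors that the dorsal forebrain and cerebellum both use.

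The gliogenic and Sox factors were called in both directions too. Of 17 gliogenic factors 10 were higher and 5 lower (58.8% and 29.4%), and of 14 Sox factors 6 and 6 (42.9% each). Over all genes tested these shares were 32.6% and 34.7%. Nfix (25.2, 27.3 and 46.8 against 242, 228 and 257 FPKM) and Nfib (7.89, 10.2 and 10.3 against 46.6, 42.2 and 59.4 FPKM), nuclear factor I proteins that drive the turn from neurons to glia, were lower in A-iSC. Sox9, which glial fate requires, was higher (38, 37.4 and 57.8 against 17.7, 15.3 and 16.4 FPKM). Id1 (228, 190.4 and 129.8 against 71.4, 62.8 and 61.9 FPKM) and Id3 (249, 243 and 179.9 against 103, 99 and 103 FPKM), inhibitors of bHLH factors that BMP signals induce, were higher too. Sox21 (27.9, 33.8 and 39.8 against 9.23, 8.88 and 9.77 FPKM), a SoxB2 factor, was higher and Sox12 (5.1, 5.36 and 6.37 against 33.5, 33.7 and 36.6 FPKM), the third SoxC gene, was lower.

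Astrocyte genes were higher in A-iSC as a group. Of 25 astrocyte genes 20 were higher, 2 lower and 3 not called (median log2 difference 1.79). Apoe, the main lipid carrier of the brain (ENSMUSG00000002985, chromosome 7: 19696109 to 19699188), was at 11922, 11939 and 8835 FPKM in A-iSC and 333, 426 and 291 FPKM in P0-NSC, a ratio of means of 31.1 (log2 difference 4.96 ± 0.21 SE, limma adjusted p = 1.40e-09). Gfap, the astrocyte intermediate filament, was at 658, 769 and 1483 against 49.3, 77 and 55.6 FPKM (log2 difference 3.91 ± 0.26 SE, limma adjusted p = 6.52e-08). Aqp4, the water channel of endfeet, was at 69.3, 71.1 and 137 against 4, 8.69 and 4.1 FPKM. A-iSC 3 was well above the other A-iSC libraries for Gfap and Aqp4, and every A-iSC library was above every P0-NSC library. S100b, a calcium-binding protein of mature astrocytes, was at 12, 10.3 and 12 against 1.12, 1.46 and 0.758 FPKM, with 479.7 FPKM on average in P56-NSC. Ntsr2 (38.7, 51.1 and 27.5 against 1.36, 2.01 and 1.08 FPKM), a neurotensin receptor of astrocytes, and Aldoc (299, 439 and 480.5 against 85.5, 93.4 and 91.3 FPKM), the brain aldolase, were higher as well.

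Several genes of mature astrocyte function did not share this direction. Slc7a10 (0.141, 0.339 and 0.247 against 7.25, 5.08 and 4.44 FPKM), a serine and alanine transporter, and Gjb6 (0.501, 1.2 and 1.27 against 2.29, 3.24 and 2.01 FPKM), the connexin 30 gene, were lower in A-iSC. Slc1a2, the main glutamate transporter of mature astrocytes, was at 14.7, 17.8 and 36.6 against 20.4, 25.3 and 17.4 FPKM with overlapping groups and was not called (log2 difference 0.03, 95% interval -0.53 to 0.59, limma adjusted p = 0.922). P56-NSC averaged 519 FPKM. Without A-iSC 3 it was lower (log2 difference -0.344, limma adjusted p = 0.0415). The GABA transporter Slc6a11 (2.84, 4.41 and 7.48 against 23.2, 32.1 and 24.5 FPKM) was lower. Slc25a18 (54.2, 66.1 and 66.5 against 10.5, 14.5 and 9.84 FPKM), a mitochondrial glutamate carrier, was higher. Over the list of glutamate and GABA uptake and synthesis, 8 of 19 were higher and 7 lower (42.1% and 36.8%). Over all genes tested these shares were 32.6% and 34.7%.

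Genes of reactive astrocytes were higher in 30 of 33 cases and lower in 2 (median 2.84), with 8 of them measured through A-iSC alone. Beside Serpina3n, the complement component C4b (38.5, 56.8 and 40.4 against 0.553, 1.07 and 0.497 FPKM) and the class I gene H2-D1 (564, 476 and 428 against 19.6, 15.8 and 16 FPKM) led the list. Cd44, the hyaluronan receptor (ENSMUSG00000005087, chromosome 2: 102811141 to 102901665), was at 34.5, 28.3 and 31 FPKM in A-iSC and 0.91, 0.999 and 1.31 FPKM in P0-NSC (log2 difference 3.96 ± 0.10 SE, limma adjusted p = 7.17e-11). AST averaged 105 FPKM. The complement component gene C3 was at 13.3, 17.7 and 22.8 against 0.17, 0.16 and 0.113 FPKM and the iron-binding lipocalin Lcn2 at 10.3, 11.6 and 7.05 against 0.167, 0.157 and 0.429 FPKM. Several of these genes are also made by microglia. The 2 lower members were B3gnt5, a glycolipid enzyme (-1.03), and the adhesion protein gene Amigo2 (-1.02).

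Among oligodendrocyte lineage genes the factors were higher in A-iSC and some surface and matrix proteins lower. Of 15 genes of oligodendrocyte precursors 8 were higher and 5 lower. Olig2, the factor that specifies the lineage, was at 38.7, 36.3 and 32.7 against 9.88, 14.5 and 10.3 FPKM (log2 difference 1.57 ± 0.13 SE, limma adjusted p = 3.80e-07). Its partners Olig1 (113, 89.2 and 99.1 against 31.3, 55.9 and 48 FPKM) and Sox10 (12.3, 12.4 and 8.83 against 2.38, 3.93 and 2.51 FPKM) were higher too. C1ql1, a secreted C1q-related protein of these precursors, showed the largest difference (92.2, 119.6 and 89.9 against 5.46, 6.16 and 5.69 FPKM). Pdgfra, the growth factor receptor of the precursors (4.49, 4.87 and 7.14 against 7.94, 9.07 and 8.01 FPKM), Vcan and Cacng4 were lower. Only 7 of 16 myelin genes reached the expression limit, 4 of them higher and 3 lower. Mog, a protein of the outer myelin layer, was at 0.0873, 0.173 and 0.0438 against 2.59, 3.45 and 2.75 FPKM. Ciliary and ependymal genes differed less: 10 of 20 were lower and 1 higher (median -0.37). Foxj1, the factor of motile cilia, was at 39.9, 40.6 and 52.2 against 68.3, 57.6 and 54.4 FPKM.

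Microglial genes were far higher in A-iSC. Of 20 genes of resting microglia 19 were higher and 1 lower (median 2.79), and of 29 genes of activated microglia 28 and 1 (median 3.81), 7 of the latter measured through A-iSC alone. The activated list shares Apoe with the astrocyte list. The summed level of the resting list was 3637 to 4639.6 FPKM in the A-iSC libraries, 369 to 410.3 in P0-NSC, 1868 to 2013 in AST and 1757 to 2074 in P56-NSC, and no measured gene of it was at 0 throughout a group. C1qa, a chain of the first complement component (ENSMUSG00000036887, chromosome 4: 136895917 to 136898803), was at 1248, 948 and 891 FPKM in A-iSC and 40.6, 42.3 and 41.6 FPKM in P0-NSC (log2 difference 4.58 ± 0.15 SE, limma adjusted p = 2.01e-10). The adaptor gene Tyrobp was at 584, 472 and 385 against 18.8, 28.3 and 26.2 FPKM, so that both stood an order of magnitude apart. Csf1r, the receptor on which microglia depend, was at 104, 83.9 and 74.3 against 10.5, 14.1 and 13 FPKM. Cx3cr1, their fractalkine receptor, was at 68.8, 57.6 and 57 against 3.55, 5.67 and 3.82 FPKM. Markers of the resting state differed less: P2ry12 was at 7.19, 5.48 and 9.23 against 3.33, 5.44 and 4.49 FPKM and Tmem119 at 18.4, 15.3 and 16.6 against 2.98, 3.43 and 3.12 FPKM. Siglech (0.0733, 0 and 0.0441 against 1.63, 2.03 and 2 FPKM), also of resting microglia, and Mrc1 (0.685, 0.799 and 0.878 against 5.55, 7.15 and 5.38 FPKM), of macrophages at brain borders, went the other way. Both were measured through P0-NSC alone, so this direction was set by the expression limit.

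Among genes of activated microglia, Spp1 (osteopontin) was at 1847, 1478 and 1242 FPKM in A-iSC and 19, 18.3 and 26.1 FPKM in P0-NSC (log2 difference 6.11 ± 0.18 SE, limma adjusted p = 1.44e-10). Gpnmb (187, 151 and 127 against 0.376, 0.949 and 0.502 FPKM), Lgals3 (318, 254 and 148 against 2.49, 2.22 and 2.5 FPKM) and Cd68 (311, 233 and 140.2 against 5.88, 8.28 and 7.08 FPKM), all phagocyte genes, were low in P0-NSC. Lgals3 averaged 224 FPKM in AST, near its A-iSC level, whereas Spp1 and Gpnmb averaged 270.2 and 16.5 FPKM there. Within A-iSC 20 of the 29 genes of activated microglia were lowest in library 3 and 4 highest, and of the 20 of resting microglia 10 and 8. Of the 25 astrocyte genes 4 were lowest there, Apoe and Ntsr2 among them, and 16 highest.

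**Figure D3:**
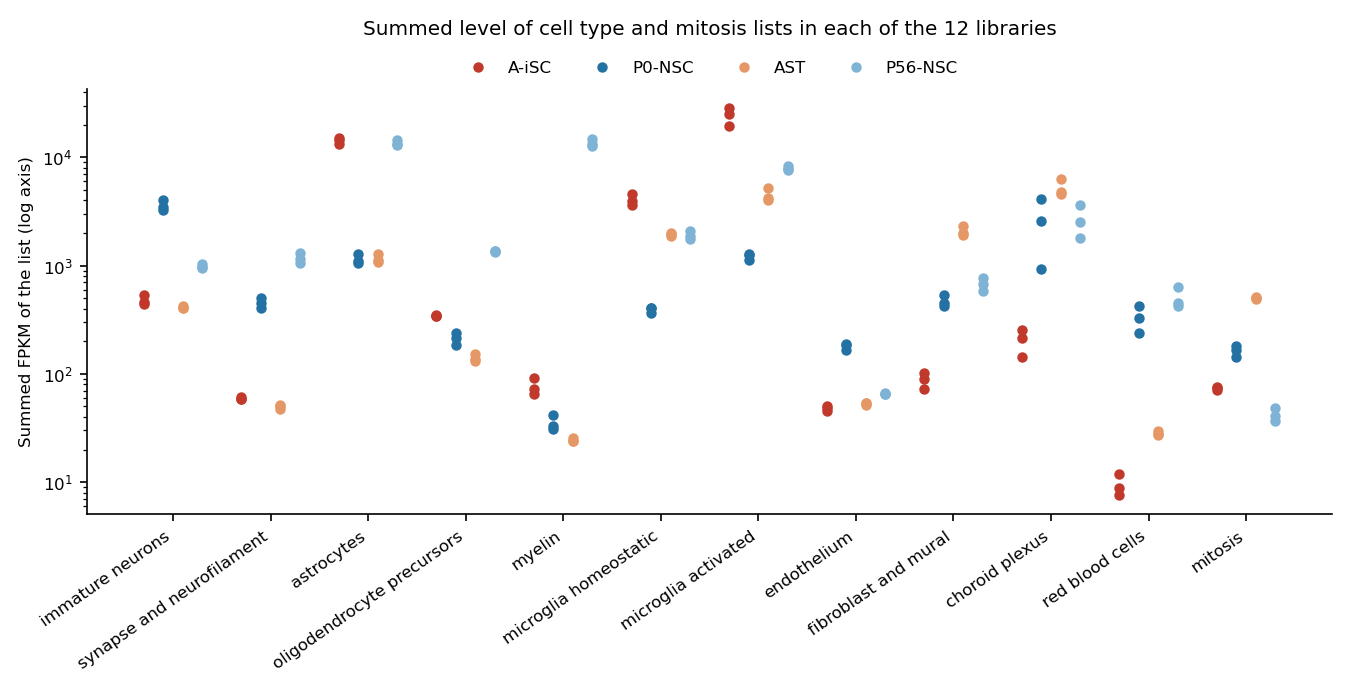
Summed FPKM of 12 gene lists (log axis) in each of the 12 libraries, 3 points per group. A-iSC lies above P0-NSC for the astrocyte, oligodendrocyte precursor, myelin and both microglia lists and below it for the neuron, synapse, vessel, fibroblast, choroid plexus, blood and mitosis lists. Sums are led by the most abundant genes of a list.

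Measured interferon-stimulated genes were higher in A-iSC. All 32 were called higher (median log2 difference 3.72), 20 of which reached the expression limit through A-iSC alone. Ifit3 (ENSMUSG00000074896, chromosome 19: 34583531 to 34588731), an antiviral protein with tetratricopeptide repeats, was at 226, 193 and 169 FPKM in A-iSC and 1.3, 0.768 and 1.23 FPKM in P0-NSC (log2 difference 6.55 ± 0.17 SE, limma adjusted p = 7.17e-11). Isg15, a ubiquitin-like modifier (ENSMUSG00000035692, chromosome 4: 156199455 to 156200796), was at 223, 179 and 120.4 against 3.42, 1.86 and 2.58 FPKM (log2 difference 5.57 ± 0.38 SE, limma adjusted p = 9.84e-08). In both genes no A-iSC library came near a P0-NSC library, and AST already averaged 80 and 166 FPKM. Stat2, a factor that carries the interferon signal, was higher too, at 23.8, 23.9 and 12.6 against 3.68, 4.1 and 3.38 FPKM. Irf7, which amplifies the response, was at 79.7, 65 and 40.3 against 1.24, 0.528 and 1 FPKM. Isg15, Irf7 and Stat2 were lowest in A-iSC 3, and Ifit2 (37.9, 32.2 and 40.2 FPKM) and Rsad2 (7.62, 5.72 and 10.3 FPKM) were highest there. The interferon list summed to 1540 to 2360 FPKM in A-iSC and 53.5 to 80.6 FPKM in P0-NSC. In AST this sum was 1345 to 1943 FPKM and in P56-NSC 121 to 200 FPKM. The activated microglia list summed to 19437 to 28616, 1125 to 1269, 4005 to 5165 and 7698 to 8267 FPKM in the same order of groups. The part of microglia in the level of the interferon-stimulated genes was not tested.

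The promoters of these genes were searched for the letters that the interferon factors are known to read. The interferon-stimulated response element was searched by its core (GAAA, any 2 bases, GAAA) on both strands in RefSeq promoters (GRCm38.p6, 250 bases before to 50 after the start). It stood in 16 of the 23 interferon-stimulated genes with a promoter in the table (69.6%), against 3.99% of 27025 genes and 3.7% of the 10254 members with a promoter. The 200 bases before the start of Ifit3 (chr19:34583329-34583528, plus strand), Isg15 (chr4:156200819-156201018, minus strand) and the class I light chain gene B2m (chr2:122147487-122147686, plus strand) are shown 5′ to 3′ on the gene's strand, with matches of either orientation in capitals. They were chosen because they hold 2, 3 and 1 match and the genes differ widely between the groups. Matches begin 156 and 122 bases before the start in Ifit3 and 139 in B2m, and 78, 72 and 66 in Isg15, where they overlap. A match describes the letters in this window only.
Ifit3: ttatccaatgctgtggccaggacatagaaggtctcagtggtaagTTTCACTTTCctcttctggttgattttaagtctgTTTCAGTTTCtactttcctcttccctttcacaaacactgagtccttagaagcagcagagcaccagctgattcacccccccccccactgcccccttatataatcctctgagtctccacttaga
Isg15: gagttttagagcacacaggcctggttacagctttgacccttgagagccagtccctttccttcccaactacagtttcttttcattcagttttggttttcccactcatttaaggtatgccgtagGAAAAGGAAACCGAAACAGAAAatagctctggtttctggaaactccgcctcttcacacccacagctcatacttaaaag
B2m: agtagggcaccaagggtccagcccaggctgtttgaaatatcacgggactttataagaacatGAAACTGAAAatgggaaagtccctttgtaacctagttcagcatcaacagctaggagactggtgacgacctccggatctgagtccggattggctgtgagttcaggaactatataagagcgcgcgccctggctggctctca

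Antigen presentation, complement and cytokine genes were mostly higher too. All 19 measured antigen presentation genes were higher (median 2.56), 8 of them measured through A-iSC alone. The class I light chain gene B2m was at 2482, 2136 and 1617 FPKM in A-iSC against 82.1, 73.4 and 90.8 FPKM in P0-NSC (log2 difference 4.63 ± 0.20 SE, limma adjusted p = 1.96e-09). The heavy chain gene H2-K1 was at 225, 188 and 239 against 9.49, 7.62 and 7.03 FPKM. Class II genes were higher but stayed low, as H2-Ab1 (2.01, 2.82 and 3.3 against 0.511, 0.589 and 0.424 FPKM) and Cd74 (5.58, 4.68 and 3.2 against 0.286, 0.655 and 0.887 FPKM) show. The near-identical class I genes share reads, so the split of reads among them is uncertain. The element stood in 2 of 15 antigen presentation promoters (13.3%), those of B2m and H2-T23. Of 15 complement genes 12 were higher and 2 lower (median 3.88), 5 of them measured through A-iSC alone. The anaphylatoxin receptor gene C3ar1 was at 68.3, 57.7 and 48.5 against 0.498, 0.614 and 0.599 FPKM. Cd55, an inhibitor of complement, was among the lower ones (-0.74). Of 25 chemokines and cytokines 22 were higher and 2 lower (10 measured through A-iSC alone). Ccl5, a T cell attractant, was at 127, 91.5 and 43.5 against 0.729, 0.25 and 0.34 FPKM, lowest in A-iSC 3 within its group. Cxcl12, a meningeal and vascular chemokine, was lower (0.595, 0.545 and 0.525 against 18.8, 17.8 and 17.4 FPKM). Of 16 NF-kB target genes 14 were higher and 0 lower (7 measured through A-iSC alone). Ptgs2, the inducible cyclooxygenase, was at 16.2, 13.9 and 9.85 against 0.239, 0.03 and 0.174 FPKM. The inhibitor gene Nfkbia (31.2, 27.6 and 21.9 against 24.7, 18.7 and 26.3 FPKM) was not called (limma adjusted p = 0.302).

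Lysosomal genes were higher in 35 of 39 cases and lower in 1 (median 2.31). Ctsd, the aspartic protease of lysosomes (ENSMUSG00000007891, chromosome 7: 142375911 to 142388038), was at 2392, 1839 and 1671 FPKM in A-iSC and 85.7, 75.8 and 88.1 FPKM in P0-NSC (log2 difference 4.53 ± 0.14 SE, limma adjusted p = 1.87e-10). Ctss, a cysteine protease of phagocytes, was at 1046, 906 and 982 against 22.6, 30.7 and 30.3 FPKM. Genes of lysosomes in all cell types differed less, with the membrane protein Lamp1 at 389.8, 376 and 485 against 117, 118 and 123 FPKM and the saposin precursor Psap at 1029, 1055 and 1089 against 309, 296 and 304 FPKM. The gene lower in A-iSC was Ctsk (1.18, 1.34 and 0.888 against 8.36, 10.5 and 7.18 FPKM), a protease that cleaves collagen. Another 3 genes were not called. The palindrome TCACGTGA, at the core of the CLEAR element read by the lysosomal factor TFEB, stood in 6 of the 30 lysosomal promoters in the table (20%), against 1.12% of 27025 genes and 2.13% of the 10254 measured genes with a promoter. This search was added after values had been seen. The log2 differences of the 6 genes were 4.53 (Ctsd), 2.96 (Ctsa), 2.28 (Gla), 0.45 (Atp6v1a), 0.10 (Mcoln1) and -0.03 (Atp6v0d1). The promoter of Ctsd, the gene with the largest difference of the 6, is shown for the 200 bases before the start (chr7:142387828-142388027, minus strand, 5′ to 3′). The match, 99 bases before the start, is in capitals.
Ctsd: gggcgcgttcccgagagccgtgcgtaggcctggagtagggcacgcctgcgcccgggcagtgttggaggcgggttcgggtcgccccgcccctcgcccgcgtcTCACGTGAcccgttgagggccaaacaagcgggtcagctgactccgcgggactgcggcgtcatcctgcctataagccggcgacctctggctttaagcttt

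Genes of lipid export were mostly higher, and those of cholesterol synthesis were called each way about as often as all genes tested. Of 23 apolipoprotein and lipid export genes 16 were higher and 4 lower. Apoc1, the neighbour of Apoe in the genome, was at 62.2, 52.9 and 38.6 against 0.705, 1.29 and 0.683 FPKM. The cholesterol pump Abca1 was at 32.9, 39 and 89.7 against 10.8, 7.95 and 7.68 FPKM, highest in A-iSC 3. Lower in A-iSC were Apod (3.52, 3.44 and 2.95 against 31.5, 35.1 and 39.1 FPKM) and the reelin receptor gene Lrp8 (4.43, 4.34 and 5.56 against 26.8, 25.4 and 25.7 FPKM). The ferritin chains Fth1 (1591, 1221 and 815 against 156, 172 and 194 FPKM) and Ftl1 (2023, 1553 and 697 against 245, 255 and 350.5 FPKM) were higher, though their many processed copies in the genome make their counts uncertain. Of 22 cholesterol synthesis genes 7 were higher and 7 lower (median -0.02). That is 31.8% each way, against 32.6% higher and 34.7% lower over all genes tested. Msmo1, a sterol demethylase, was higher (26.8, 23.7 and 32.4 against 5.36, 5.51 and 5.7 FPKM).

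Most glycolysis genes were higher in A-iSC, while 22 of 42 genes of oxidative phosphorylation were not called. Of 21 glycolysis genes 18 were higher and 2 lower (median 1.34), and of 28 hypoxia response genes 21 and 1 (median 0.88). Aldoa, the muscle-type aldolase, was at 415, 425 and 233 FPKM in A-iSC and 70.4, 62.4 and 68.8 FPKM in P0-NSC (log2 difference 2.35 ± 0.22 SE, limma adjusted p = 1.28e-06). The lactate exporter Slc16a3 was at 6.27, 6.86 and 8.77 against 0.485, 0.226 and 0.451 FPKM. The oxygen sensor Egln3 (20, 24.2 and 34.6 against 3.73, 4.52 and 4.05 FPKM) and the collagen hydroxylase P4ha1 (26.8, 28.2 and 32.4 against 8.47, 7.26 and 8.67 FPKM), hypoxia targets, were higher. Ddit4, an inhibitor of mTOR, was lower (40.1, 52 and 48.6 against 75.3, 60.7 and 70 FPKM). The sugar transporter Slc2a1 (0.89) was higher, and the sensor gene Egln1 was not called (limma adjusted p = 0.368). In oxidative phosphorylation 16 were higher and 4 lower with a median of 0.22, and the largest difference was 1.15, in Uqcrb (117, 98.2 and 81.1 against 32, 48.5 and 52.3 FPKM). This count moved to 26 higher without A-iSC 3 and AST 2, and the number lower moved to 8 under quantile normalization.

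Antioxidant and metal-binding genes were higher in 22 of 25 cases and lower in 0 (median 2.07). Hmox1, the haem oxygenase (ENSMUSG00000005413, chromosome 8: 75093621 to 75100589), was at 297, 251 and 155 FPKM in A-iSC and 11.1, 8.57 and 14.3 FPKM in P0-NSC (log2 difference 4.23 ± 0.23 SE, limma adjusted p = 1.33e-08). AST averaged 451 FPKM. Nfe2l2, the factor that induces antioxidant genes, was at 48.6, 43.1 and 73.2 against 4.04, 3.88 and 5.07 FPKM. Its targets Srxn1 (51.1, 49.6 and 46.4 against 3.19, 3.42 and 3.35 FPKM) and Nqo1 (35.4, 30.1 and 23.5 against 6.59, 3.27 and 3.46 FPKM) were higher too. The metallothionein Mt1 was at 1622, 1481 and 671 against 98.4, 93.8 and 119 FPKM, again lowest in A-iSC 3. Of 27 genes of ER stress and the ATF4 response 17 were higher and 4 lower. The factor gene Ddit3 was higher (29.9, 28 and 15.3 against 5.13, 4.07 and 6.74 FPKM), while Atf4 itself (105, 90.7 and 51.6 against 69.9, 52 and 78.6 FPKM) was called only without A-iSC 3 (limma adjusted p = 0.346 with it and 0.0106 without). Of 19 immediate early genes 10 were higher and 3 lower. Junb, an AP-1 subunit, was higher (134, 107 and 70.9 against 9.29, 5.61 and 7.42 FPKM). Nr4a3, a nuclear receptor, was lower (1.98, 1.57 and 1.81 against 16.9, 17.9 and 19.6 FPKM).

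Cell division genes were lower in A-iSC. Of 31 mitosis genes 28 were lower and 0 higher (median -0.86), and of 39 DNA replication genes 29 and 3 (median -0.67), 4 of the latter list measured through P0-NSC alone. Mki67, the Ki-67 antigen (ENSMUSG00000031004, chromosome 7: 135689784 to 135716361), was at 3.91, 3.69 and 4.1 FPKM in A-iSC and 11.1, 8.19 and 11.6 FPKM in P0-NSC (log2 difference -1.19 ± 0.12 SE, limma adjusted p = 2.25e-06). Ccna2 (2.66, 2.54 and 3.35 against 11.1, 8.61 and 9.94 FPKM), the S and G2 phase cyclin, and Cdc20 (5.1, 6.6 and 6.13 against 17.1, 13.8 and 15.2 FPKM), the activator of the anaphase complex, were low in A-iSC with groups that did not overlap. The starting astrocytes were above both groups (Mki67 at 15.1, Cdc20 at 51.6 FPKM on average) and P56-NSC below both (1.53 and 3.22 FPKM). In replication, Mcm5 (3.18, 3.55 and 3.99 against 11.3, 10.3 and 10.7 FPKM), of the helicase, and Dut (6.98, 8.64 and 5.73 against 20.5, 19.6 and 21.3 FPKM), which clears dUTP, were lower. The sliding clamp gene Pcna, at 58.5, 55.8 and 51.8 against 53.9, 51.3 and 55.3 FPKM, was not called (limma adjusted p = 0.692, 95% interval of the log2 difference -0.17 to 0.27). The letters TTTGAA, the cell cycle homology region through which the DREAM complex represses mitotic genes, stood on either strand in 21 of 27 mitosis promoters (77.8%) and in 4 of 31 replication promoters (12.9%), against 20.2% of 27025 genes and 13.6% of the 10254 measured ones. The promoter of Cdc20 is shown for the 200 bases before the start (chr4:118437344-118437543, minus strand, 5′ to 3′), with the match in capitals, 18 bases before the start, as an example of a member whose call is clear.
Cdc20: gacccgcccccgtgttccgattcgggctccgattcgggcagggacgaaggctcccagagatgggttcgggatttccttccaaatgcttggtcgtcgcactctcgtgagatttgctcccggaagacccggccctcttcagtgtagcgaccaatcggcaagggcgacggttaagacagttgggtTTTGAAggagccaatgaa

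Inhibitors and drivers of the G1 phase were called in both directions. Of 23 G1 cyclins, kinases and their inhibitors 8 were higher and 10 lower (34.8% and 43.5%, against 32.6% and 34.7% over all genes tested). Cdkn1a, the inhibitor p21 (ENSMUSG00000023067, chromosome 17: 29090976 to 29100727), was at 75.2, 75.7 and 57.9 FPKM in A-iSC and 10.4, 8.3 and 10.6 FPKM in P0-NSC (log2 difference 2.71 ± 0.19 SE, limma adjusted p = 1.29e-07). Cdkn2a (9.53, 8.54 and 6.21 against 0.336, 0.0586 and 0.279 FPKM) and Cdkn2b (8.75, 9.2 and 11.4 against 0.818, 0.544 and 0.705 FPKM), the neighbouring INK4 genes, were below 1 FPKM in P0-NSC, and AST averaged 48.9 and 28.3 FPKM. Cdkn1c (2.36, 2.25 and 1.15 against 23.5, 18 and 26.9 FPKM), the imprinted inhibitor p57 of differentiating progenitors, was lower. Mycn (2.91, 3.8 and 4.54 against 23.5, 20.1 and 26.8 FPKM) and Mycl (1.11, 1.41 and 1.99 against 51.5, 47 and 52.5 FPKM), MYC factors of neural progenitors and neurons, were lower. The cyclin gene Ccnd1 (10.5, 11.6 and 14.7 against 12, 11.8 and 12.4 FPKM) was not called (limma adjusted p = 0.958), and AST averaged 428 FPKM. Of 24 p53 target genes 18 were higher and 1 lower (median 1.09), 5 of them measured through A-iSC alone. The death receptor gene Fas was at 19.4, 18 and 17.2 against 0.276, 0.283 and 0.423 FPKM. Phlda3, an inhibitor of AKT signalling, was at 108, 115 and 81.3 against 7.82, 6.94 and 7.08 FPKM.

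Chromatin genes were lower in 23 of 32 cases and higher in 3 (median -0.69). Chd3, a remodeller of neurons (7.61, 8.82 and 11.1 against 66.5, 72.8 and 64.3 FPKM), the lamin Lmnb1 (12.6, 12 and 14.4 against 82, 67 and 78.5 FPKM) and Hmgb3 (13.4, 12.3 and 20.9 against 78.1, 71.4 and 79.7 FPKM) differed most. Hmga1 (59, 57.8 and 44.2 against 25, 24 and 29.5 FPKM), a DNA-bending protein, and the histone deacetylase Hdac1 were higher. Of 45 ribosomal protein genes 4 were higher and 0 lower (median 0.11), most with overlapping groups. This depended on library and scaling: without A-iSC 3 12 were higher, and under quantile normalization 18 were lower. Rps27l (127, 103 and 105 against 50.6, 49.1 and 56.5 FPKM), a p53-induced paralogue of a ribosomal protein, was the one that differed by more than 2-fold.

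Vascular, mesenchymal, choroid plexus and blood genes were lower in A-iSC with few exceptions. Of 15 endothelial genes 14 were lower and 1 higher (median -2.14), and of 20 fibroblast and mural cell genes 16 and 1 (-2.09). Of 14 choroid plexus genes 11 were lower and 1 higher (-2.29), and all 7 measured red blood cell genes were lower (-4.79). Through P0-NSC alone 10, 7, 7 and 5 of these were measured. Cldn5, the tight junction protein of brain vessels (ENSMUSG00000041378, chromosome 16: 18776847 to 18778262), was at 0.175, 0 and 0 FPKM in A-iSC and 49.6, 53.4 and 49.4 FPKM in P0-NSC (log2 difference -5.62 ± 0.09 SE, limma adjusted p = 3.39e-12). Cdh5, the vascular cadherin, was at 0.224, 0.11 and 0.133 against 10.8, 8.56 and 11 FPKM, and the exception, Slc2a1, is also a glycolytic gene of astrocytes. Cldn5 and Cdh5 were measured through P0-NSC alone and so had to be lower in A-iSC. Col3a1, a fibrillar collagen of fibroblasts, was at 0.965, 0.951 and 1.04 against 36.6, 35.5 and 32.5 FPKM. Rgs5, a pericyte gene, was at 0.513, 0.592 and 0.993 against 37.5, 35.4 and 42.8 FPKM. The exception here was Acta2, the smooth muscle actin, at 58.6, 40.9 and 25.5 against 4, 1.77 and 3.34 FPKM, with 1848 FPKM on average in AST. Choroid plexus genes varied widely within P0-NSC, with library 2 lowest and library 1 highest for Aqp1 (36.7, 6.71 and 18.4 FPKM), Clic6 (28, 5.88 and 15 FPKM) and Ttr, while all 3 were below 2 FPKM in A-iSC. The summed endothelial list came to 44.9 to 50.1 FPKM in A-iSC and 167 to 189.7 FPKM in P0-NSC. Slc2a1, the member higher in A-iSC, had the highest mean of the measured members over the 6 libraries. These sums are thus not of vessel RNA alone. How far vascular, mesenchymal, choroid plexus and blood cells add to the neuronal and matrix differences was not tested.

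Matrix genes were divided. Of 23 collagen genes 15 were lower and 4 higher (median -1.65), and of 39 matrix glycoproteins and lecticans 23 and 10 (-0.77), with 4 and 8 measured through P0-NSC alone. The basement membrane genes Col4a1 (5.4, 6.13 and 6.18 against 78.6, 61.9 and 71.9 FPKM) and Lamb1 (0.355, 0.377 and 0.308 against 14.1, 12.9 and 12.5 FPKM) were lower. The YAP targets Ccn1 (117, 106 and 53.5 against 23, 11.8 and 18.6 FPKM) and Ccn2 (45.7, 47.2 and 26.1 against 4.57, 5.03 and 4.09 FPKM) were higher. So was Fn1, the fibronectin gene (60.1, 58.7 and 80.1 against 15.5, 18.9 and 16.7 FPKM). Of the lecticans of the brain matrix, Bcan (50.6, 51.7 and 58.4 against 46.5, 65.7 and 49.2 FPKM) was not called (95% interval of the log2 difference -0.28 to 0.29), and Vcan was lower (4.08, 4.01 and 4.16 against 14.6, 14.4 and 12.7 FPKM). Of 24 matrix proteases and inhibitors 16 were higher and 6 lower, 6 measured through A-iSC alone and 2 through P0-NSC alone. Mmp12, a macrophage elastase, was at 7.16, 7.05 and 5.26 against 0, 0 and 0.01 FPKM. The protease inhibitor gene Timp1 (52.4, 38.4 and 34.2 against 2.02, 1.35 and 1.92 FPKM) was higher as well. Lower were Mmp9 (0.0421, 0.202 and 0.137 against 7.58, 5.62 and 8.84 FPKM), a gelatinase, and Mmp24 (0.784, 1.1 and 1.72 against 17.2, 20.7 and 17.8 FPKM), a membrane protease of neurons.

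Adhesion, contractile and calcium-binding genes were mostly higher in A-iSC. Of 23 integrins and cadherins 16 were higher and 5 lower, and of 24 genes of the actin cytoskeleton and SRF 16 and 3 (medians 0.81 and 0.75). Of the integrins and cadherins 4 were measured through A-iSC alone and 3 through P0-NSC alone. Of 23 YAP and TEAD targets 14 were higher and 3 lower, and of 19 S100 proteins and annexins 17 and 2 (medians 0.63 and 2.04). Itga7 (12.2, 13.1 and 10.5 against 1.36, 1.17 and 0.996 FPKM), a laminin receptor, was higher, while the neuronal cadherins Cdh8 (-2.32) and Cdh4 (-2.11) were lower. F3, tissue factor, was at 73, 73.3 and 63.6 FPKM in A-iSC and 2.85, 4.06 and 4.32 FPKM in P0-NSC (log2 difference 3.91 ± 0.13 SE, limma adjusted p = 2.25e-10). Tagln2, an actin-binding protein, was at 88.6, 87.1 and 59.9 against 21.9, 20.5 and 21.8 FPKM. Both were higher still in AST, F3 at 368 FPKM and Tagln2 at 269 FPKM on average. S100a6 (229, 235 and 111 against 8.7, 10.1 and 8.84 FPKM) and S100a11 (513, 401 and 181 against 29.2, 32.6 and 40 FPKM) were higher, A-iSC 3 lowest in both. The 2 lower members, S100a8 (0.214, 0.364 and 0.269 against 2.08, 3.22 and 6.02 FPKM) and S100a9 (0, 0 and 0 against 3.85, 3.75 and 9.25 FPKM), are the calprotectin genes of neutrophils, and neither was above 1 FPKM in A-iSC. Both were thus measured through P0-NSC alone and had to be lower, and 2 of the higher members were measured through A-iSC alone.

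Genes of progenitor signalling pathways differed in both directions. Of 25 Notch pathway genes 12 were lower and 7 higher (48% and 28%, median -0.53). Over all genes tested 34.7% were lower and 32.6% higher. Notch ligands split. Jag2 (0.563, 0.64 and 0.364 against 8.24, 10.1 and 7.74 FPKM) and Dll1 (4.59, 4.87 and 4.52 against 7.89, 7.16 and 8.52 FPKM) were lower, and so was Dll4, a ligand of vessels (0.399, 0.415 and 0.223 against 3.82, 3.3 and 4.23 FPKM). Jag1 was higher (5.81, 6.01 and 5.2 against 2.9, 2.78 and 3.04 FPKM). The receptor gene Notch1 (5.73, 6.65 and 12.5 against 13, 12.5 and 12.3 FPKM) was not called (limma adjusted p = 0.0579), with A-iSC 3 level with P0-NSC, and was lower without A-iSC 3 (log2 difference -0.921, limma adjusted p = 0.00335). It was called lower in 6 of 26 alternatives, among them total-read scaling, quantile normalization and limma-voom (limma adjusted p = 0.0391, 0.0319 and 0.0427). Among targets Nrarp (0.884, 1.24 and 2.79 against 6.6, 7.04 and 5.95 FPKM) and Hes5 were lower and Hes1 and Hey1 (0.48) higher. Of 26 Wnt pathway genes 13 were lower and 5 higher (50% and 19.2%, median -0.37). The agonist gene Rspo1 (0.282, 0.282 and 0.115 against 6.27, 3.65 and 6.52 FPKM) and the feedback inhibitor gene Nkd1 (2.05, 1.69 and 1.75 against 14.4, 12.4 and 13.5 FPKM) were lower. The receptor gene Fzd8 was higher (6.58, 7.1 and 7.71 against 2.85, 2.6 and 3.46 FPKM). Of only 9 Hedgehog genes 4 were lower and 2 higher (44.4% and 22.2%). The target gene Gli1 was lower (0.368, 0.421 and 0.381 against 4.03, 3.25 and 3.21 FPKM) and the coreceptor gene Boc higher (8.51, 9.5 and 7.89 against 2.64, 2.05 and 2.6 FPKM). The transducer gene Smo was not called (limma adjusted p = 0.331).

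Of 24 BMP pathway genes 11 were higher and 8 lower, 4 measured through P0-NSC alone. These are 45.8% and 33.3%, against 32.6% and 34.7% over all genes tested. The ligand Bmp7 (0.889, 1.15 and 0.984 against 13.3, 14.8 and 12.3 FPKM) was lower. The receptor Bmpr1b (4.49, 5.52 and 10.1 against 1.05, 1.5 and 1.3 FPKM) and the antagonist Nog (19.3, 17.6 and 15.7 against 6.68, 8.02 and 6.83 FPKM) were higher. Of 25 growth factor genes 15 were higher and 7 lower. Among ligands Tgfb1 (19.5, 15.2 and 9.34 against 2.15, 2.15 and 2.31 FPKM) and Hbegf (19.9, 17.4 and 11 against 2.68, 2.75 and 2.52 FPKM) were higher. Fgf2 was higher as well (3.9, 3.59 and 8.53 against 0.786, 0.82 and 0.583 FPKM), and the heparin-binding factor Mdk was lower (22.6, 23.7 and 15.7 against 103, 73.8 and 86.4 FPKM). The receptors Egfr (3.49, 3.69 and 4.63 against 2.17, 2.58 and 2.01 FPKM) and Fgfr3 (13.5, 14.1 and 12.4 against 8.96, 9.29 and 8.1 FPKM), of the EGF and FGF receptor families, were higher. Of 23 genes of the IGF system and imprinted genes 15 were lower and 6 higher (median -1.14). The imprinted noncoding genes H19 (2.18, 2.39 and 4.56 against 59.9, 41.7 and 58.6 FPKM) and Peg13 (6.89, 6 and 9.46 against 40.8, 40.3 and 45.2 FPKM) were lower. Igf1, which microglia also make, was higher (30.5, 24.2 and 18 against 1.09, 1.33 and 1.02 FPKM). The IGF-binding protein genes Igfbp3 (89.8, 75.6 and 45.1 against 11.2, 8.58 and 14.1 FPKM) and Igfbp5 (131, 135 and 191 against 32.1, 30.9 and 35.4 FPKM) were higher too.

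**Figure D4:**
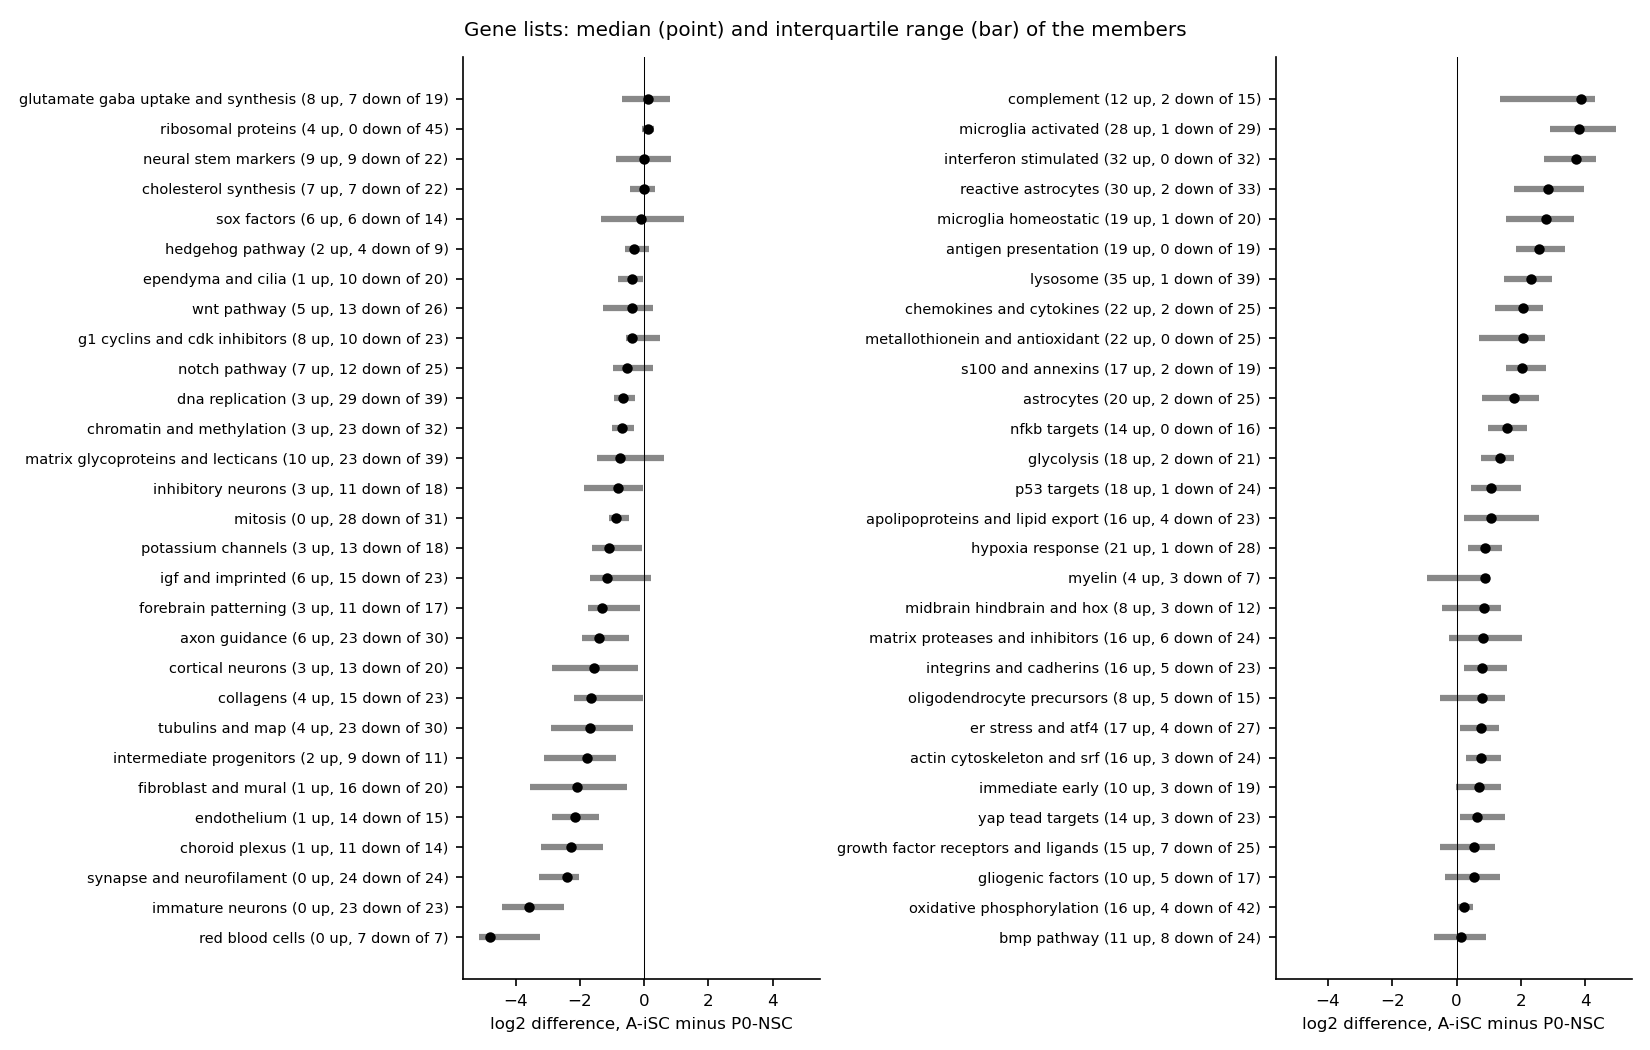
Median (point) and interquartile range (bar) of the log2 difference, A-iSC minus P0-NSC on the log2(FPKM + 1) scale, over the measured members of each gene list with 5 or more of them, with the counts called higher (up) and lower (down). Red blood cell and immature neuron genes lie furthest to the left and complement, activated microglia and interferon-stimulated genes furthest to the right, and neural stem markers are centred near 0.

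The spread of A-iSC was wider than that of P0-NSC. The median SD over 3 libraries was 0.1915 on the log2 scale in A-iSC and 0.1067 in P0-NSC, and it passed 0.5 in 998 genes (6.98%) and in 218 (1.53%). Gene length went with this spread: the deviation of a library from its group mean had a Spearman correlation with gene length of -0.281, -0.233 and 0.328 in A-iSC and of 0.002, 0.119 and -0.128 in P0-NSC. These are correlations across genes, which are not independent replicates. The difference between the groups also varied with length. In the top tertile of gene length (5556 bases or more) 1322 were higher and 2051 lower in A-iSC, with a median of -0.16, and in the bottom tertile (up to 2880 bases) 1757 were higher and 1355 lower, with a median of 0.12. With length removed by a smooth curve in each library, 10127 genes were called.

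**Figure D5:**
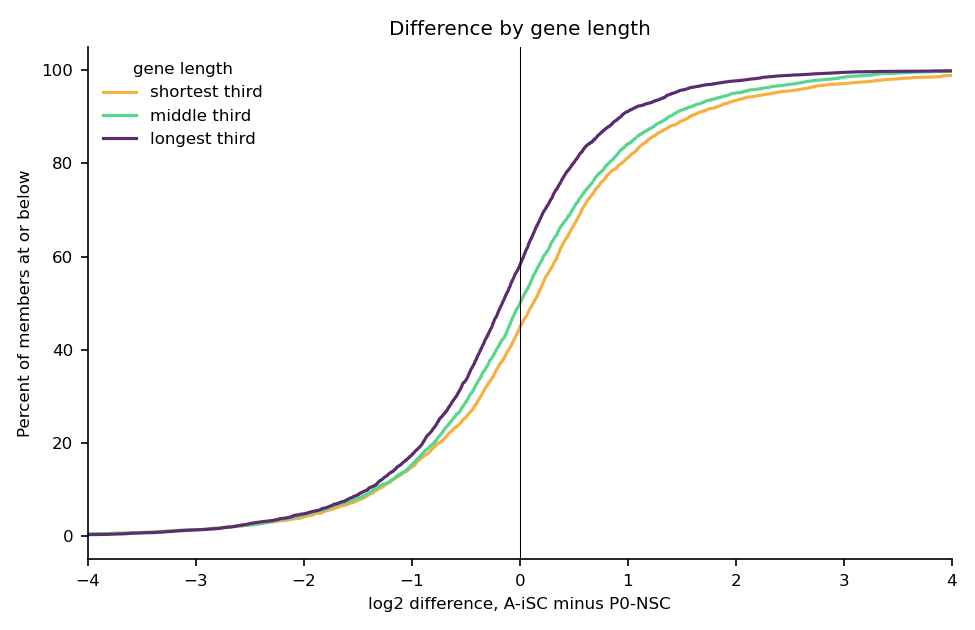
Cumulative share of genes (percent, y axis) at or below each log2 difference, A-iSC minus P0-NSC (x axis), for the 3 tertiles of gene length. The curve of the longest genes lies to the left of the other 2 over the middle of the range, with medians of -0.16, 0.00 and 0.12 from longest to shortest.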

How the data were processed

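Bulk RNA-seq of 12 libraries was deposited by the authors as a single table of FPKM values per gene. The header names no unit, which was read from the values: times gene length they are whole multiples of 1 read within 0.01 read, and how the libraries were scaled to each other is not stated. Bowtie 0.12.2 and 2 builds, mm8 and mm9, stand in the submitters' processing notes with no role. The table's gene coordinates match GRCm38 (99.54% of 55240 shared identifiers), and coordinates are given on that build. The sources used here do not give the counting program. Per the labels' protocols, 3 µg of RNA per sample entered a NEBNext Ultra kit, which does not mark strand, so antisense and overlapping genes share reads, as do near-identical copies. Entries without a gene name (441 of 55862) were left out.

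The FPKM values were taken as log2(FPKM + 1) and fitted with limma 3.58.1 (R 4.3.3 with data.table, version 1.17.8; tables and figures with Python 3.11.15, numpy 2.4.6, pandas 2.3.3, scipy 1.17.1 and matplotlib 3.10.9) with 1 mean per group over all 12 libraries, no covariate, a mean-variance trend and Benjamini-Hochberg adjustment over 15747 named genes, those reaching 1 FPKM in 3 or more of the 12 libraries. In simulated data of 15747 genes, with the same dispersion in every gene and group, 67, 67 and 66 well-covered genes were changed 1.5-fold, 2-fold and 4-fold. Of these 17.9%, 80.6% and 100% were recovered. The real data had far more called genes and a wider spread in A-iSC. The simulated rates therefore check the fit and are not the recovery rates of this comparison. Alternatives changed the pseudocount to 0.1, the filters, the scaling, the fitted libraries, a replicate block and a correction for gene length, left out each library in turn, and ran limma-voom on the recovered reads, all of which came out whole (100%). Genes were named by rule: the 12 largest called differences each way with a mean of 10 FPKM or more and groups that do not overlap, up to 3 per list and direction, the highest member of each list, and a fixed set of identity genes. Other genes of the lists were named after their values had been seen, and some genes the rule names are not reported here. The genes described and the lists were chosen with earlier results of these data known. Promoter sequences are from RefSeq (GRCm38.p6).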

Additional observations from a re-analysis of the deposited data

How the results depend on the processing

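Across 26 alternatives the number of genes called ran from 7016 (5 FPKM or more in 3 libraries) to 11201 (without A-iSC 3 and AST 2). With 1 library left out it ran from 9252 (without P0-NSC 1) to 10630 (without A-iSC 3). Genes called at 2-fold or more and lower in A-iSC numbered 1497 under the filter of 5 FPKM, which tests fewer genes. With limma-voom on the recovered reads 10016 genes were called and 5671 at 2-fold or more. The share of calls higher in A-iSC was 48.4%, and 45.1% under total-read scaling, which shifts the median of all genes by -0.07, but 50.8% with the gene length correction and 51.1% under the filter of 5 FPKM. Among the called genes named, all but Fabp7, Slc1a3 and Hes1 kept the call in every alternative that tested them. For 15 of them, at low levels, 24 or 25 alternatives did, since stricter filters leave them out. Of 3068 list counts recomputed 101 moved by over 1.5 times, those of ribosomal proteins and oxidative phosphorylation among them.

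Genes that were not called changed sign in places, and the cause was not tested. Under total-read scaling the log2 difference was -0.066 for Bcan, -0.058 for Ccnd1, -0.025 for Pcna and -0.040 for Slc1a2. Under quantile normalization it was -0.015 for Atf4, -0.179 for Bcan, -0.027 for Ccnd1, -0.153 for Pcna and -0.017 for Slc1a2. With the gene length correction, with or without the replicate block, it was -0.002 for Bcan, 0.110 for Pax6 and -0.104 for Pcna. Without A-iSC 3 and AST 2 it was -0.055 for Bcan, -0.114 for Ccnd1 and -0.344 for Slc1a2. With 1 library left out it ran from -0.088 to 0.158 for Bcan, -0.114 to 0.106 for Ccnd1 and -0.344 to 0.284 for Slc1a2.

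With the replicate number as a block 9862 genes were called, 4325 at 2-fold or more, and 10059 with the gene length correction as well. No pairing by number was seen: deviations of same-numbered A-iSC and P0-NSC libraries correlated at -0.048, -0.033 and -0.106, and no library of A-iSC correlated best with its own number. Such correlations across genes cannot exclude a shared preparation.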

Other observations

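Other groupings of the 14291 genes gave the following counts. Of 924 transcription factor genes 314 were higher and 387 lower in A-iSC (34% and 41.9%). Over all genes tested 32.6% were higher and 34.7% lower. Among factor families 26 of 41 bZIP genes were higher and 6 lower (median log2 difference 0.68), and 10 of 12 genes of the THR-like nuclear receptors were higher and 1 lower (median 0.94). Of these 12 genes 4 were measured through A-iSC alone and so had to be higher. Of 19 forkhead genes 1 was higher and 14 lower (median -0.80), and of 26 MYB genes 4 were higher and 15 lower (median -0.39). Homeobox genes, 53 in all, were even at 21 and 21 (39.6% each way), with 12 measured through A-iSC alone and 9 through P0-NSC alone. By gene class, 173 of 612 lncRNA genes were higher and 254 lower (28.3% and 41.5%), against 4475 and 4535 of 12526 protein-coding genes (35.7% and 36.2%). Of the lncRNA genes 80 were measured through A-iSC alone and 136 through P0-NSC alone, and these had to differ. Of 89 snoRNA genes 4 were higher and 36 lower (median -0.56), and of the 89 genes 15 were measured through P0-NSC alone and 1 through A-iSC alone.

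Some differences lay in runs of 5 or more neighbouring measured protein-coding genes called in 1 direction at 2-fold or more, 21 runs higher and 4 lower in A-iSC. On chromosome 19, from 34241090 to 34650009 (GRCm38), 8 neighbours from Acta2 and Fas to the Ifit genes were higher in A-iSC (median 3.61), and from 11301249 to 11604849 all 7 measured Ms4a genes (median 2.69). Others higher were 7 class II, proteasome and transporter genes on chromosome 17 from 34119541 to 34269419 (median 2.56), 6 Trim genes on chromosome 7 from 104244457 to 104507849 (median 2.76) and 10 genes on chromosome 13 from 23531050 to 23761230, of which 9 were Hist1 histone genes (median 1.69). Lower in A-iSC were 10 predicted genes on chromosome 14 from 3049285 to 7483762 (median -1.32) and 7 neighbours on chromosome 7 from 59974149 to 63759028 (median -1.44), among them the imprinted genes Snrpn and Ndn. Close copies share reads in several of these runs.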
